A study of Sus scrofa with 35 samples.

Results

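The genes described here were the cytosolic HSP90 pair HSP90AA1 and HSP90AB1, the mitochondrial HSP90 paralogue TRAP1, and the mitochondrial chaperonin HSPD1 (HSP60) with its co-chaperonin HSPE1 (HSP10). Their probes were taken by the gene name printed in the scanner files, older names allowed, which gave 44 of the 60305 non-control probes of a porcine expression array. HSPD1 had 21 of them, HSP90AA1 8, HSP90AB1 7, HSPE1 6 and TRAP1 2. Probes were kept when some group had 75% or more of its arrays well above background, which 43 of the 44 passed, among 41517 probes kept in all. These 5 genes stand among 9551 named genes with a kept probe. The probe left out was TRAP1 O10647, which was well above background on 0 of 35 arrays, so that 1 TRAP1 probe carried all values of that gene.

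The samples were longissimus dorsi muscle of castrated male growing pigs, with 1 pig per array, of the Creole breed, the Large White breed and their F1 cross. Pigs kept at the thermoneutral (TN) temperature of 24 °C numbered 6 Creole, 6 F1 and 6 Large White, and pigs under heat stress (HS) numbered 6 Creole, 5 F1 and 6 Large White. The sample labels give HS as 30 °C, while the growth protocol gives 32 °C for 5 days. TN pigs were slaughtered before the temperature rose and HS pigs after it, in different pens, so that heat, day of slaughter, age and pen cannot be told apart. The pigs came from blocks of littermates that the labels do not give, and p-values measure the spread between these pigs. Level means normalised log2 median pixel intensity throughout, a change is a difference of levels, and a probe was called when its limma p, adjusted by Benjamini-Hochberg over all 41517 kept probes, was at most 0.05.

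HSP90 is an ATP-driven dimer that completes the folding of client proteins such as steroid receptors and kinases, and it works through co-chaperones that load clients or set its ATPase cycle. HSP90AA1 is known as the stress-inducible cytosolic form and HSP90AB1 as the constitutive form, while TRAP1 is the form of the mitochondrial matrix. HSPD1 forms the ring-shaped chamber in which imported mitochondrial proteins fold, and HSPE1 is its lid. In the RefSeq annotation of the pig assembly Sscrofa11.1 the HSPD1 and HSPE1 genes lie next to each other on chromosome 15.

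The probes of the HSP90 pair differ in sequence, as 3 of the 60-base probes from a stretch the genes share show. The capitals mark bases that differ from the first line within the overlap of the aligned probes, and bases outside the overlap stay in lower case.
HSP90AB1 A_72_P424164: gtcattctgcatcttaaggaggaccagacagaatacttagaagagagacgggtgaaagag
HSP90AB1 A_72_P763852: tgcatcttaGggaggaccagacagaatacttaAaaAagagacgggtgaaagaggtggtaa
HSP90AA1 A_72_P174931: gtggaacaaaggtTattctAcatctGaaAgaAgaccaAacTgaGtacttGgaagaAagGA
The HSP90AB1 probes matched at 50 of 53 overlapping bases, with the substitutions A17G, G40A and G43A counted from 1 at the 5′ end of A_72_P424164. The HSP90AA1 probe matched A_72_P424164 at 37 of 49 overlapping bases, or 75.5%. Over all 56 pairs of an HSP90AA1 and an HSP90AB1 probe the longest run of bases in common was 8. Probes were compared with probes only, many of them from different stretches, and not with transcripts. Whether a probe of 1 gene also picks up the transcript of the other was therefore not tested.

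Probes of 1 gene were often the same stretch of transcript and are not replicates of each other. Of the 43 distinct member sequences, HSP90AA1 A_72_P525187 and O8902 hold the same 60 bases, and 18 of the 21 HSPD1 probes share at least 25 bases with another HSPD1 probe. The HSPD1 probes below show that overlap, with the run shared with the first line in capitals (32 and 38 bases), and the HSP90AA1 and TRAP1 probes that later results turn on are printed with them.
HSPD1 A_72_P565659: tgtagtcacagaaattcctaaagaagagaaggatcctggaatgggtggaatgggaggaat
HSPD1 A_72_P560689: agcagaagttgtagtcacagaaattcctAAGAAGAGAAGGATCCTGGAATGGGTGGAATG
HSPD1 A_72_P637639: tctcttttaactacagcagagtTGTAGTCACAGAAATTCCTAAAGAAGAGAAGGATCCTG
HSP90AA1 A_72_P525187 and O8902: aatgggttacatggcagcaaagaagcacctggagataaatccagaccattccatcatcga
TRAP1 A_72_P063446: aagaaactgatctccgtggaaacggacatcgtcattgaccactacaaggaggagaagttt

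Under heat the HSP90AB1 and HSPE1 transcripts rose, HSP90AA1 rose at 3 of its 8 probes under the main settings but not under every alternative, and no probe of HSPD1 or TRAP1 passed the test. Of the 43 kept member probes, 14 (32.6%) were called, all of them higher in HS. Over all kept probes 16% were called and 7.73% were called higher. The count of member calls was 8 with scaling to the 75th percentile and 25 with array weights. Over all kept probes the calls went from 6654, 3209 of them higher, to 7286 and 9158 under these settings. Of those, 2733 and 4372 were higher. The median change of the member probes was 0.21, against -0.02 over all kept probes, and 42 of the 43 had a positive sign. The share with a positive sign over all kept probes was not counted. With scaling to spike-in controls the median over all kept probes was 0.07. Of all calls on the array, 48.2% were higher in HS, a share that became 37.5% with scaling to the 75th percentile and 86.6% with scaling to spike-in controls.

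HSP90AB1 had the clearest change of the 5 genes. Its brightest probe, A_72_P051491, ran from 15.31 through a median of 15.73 to 16.01 in Creole TN pigs and from 16.07 through 16.30 to 16.59 in Creole HS pigs. In F1 pigs the lowest, median and highest TN levels were 15.61, 15.80 and 16.19, and the HS levels were 16.03, 16.07, 16.22, 16.25 and 16.25. In Large White pigs the TN levels ran from 15.60 (median 15.70) to 16.36 and the HS levels from 15.85 (median 16.19) to 16.54. The Creole groups did not overlap, while the F1 and Large White groups did, and all 17 HS pigs lay above the TN mean of their breed. How many of all kept probes do the same was not counted. The interaction of breed and temperature at this probe was not called (limma adjusted p = 0.963).

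The mean HSP90AB1 level was 15.79 ± 0.24 in TN (SD, n = 18) and 16.22 ± 0.20 in HS (SD, n = 17). The change was 0.43 (SE 0.08, limma adjusted p = 0.000497), or 1.34-fold with a 95% interval of 1.20 to 1.50. The other HSP90AB1 probes that were called had adjusted p-values from 0.000171 to 0.00125, and the smallest belonged to A_72_P642785, whose 17 HS levels spanned only 13.74 to 14.11 while its 18 TN levels spanned 13.01 to 13.95. Within each of the 5 slides the HS mean of A_72_P051491, breed means removed, was above the TN mean, by 0.25 to 0.62. Slide 5 held only 2 Large White TN pigs and 1 Creole HS pig. The brightest HSP90AA1 probe, which was not called, was also higher in HS on all 5 slides (0.01 to 0.55).

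The HSP90AB1 probe that was not called, O14652, was dim, with levels from 5.62 to 6.79. Its change was 0.05 (adjusted p = 0.621), and its correlation with the 6 other HSP90AB1 probes over the arrays, group means removed, ran from -0.19 to 0.16. Its sequence as printed in the scanner files holds the reverse complement of 30 bases of A_72_P051491, the stretch shown here.
A_72_P051491, shared stretch: tctcctctgctgatgtctagtggttttatt
O14652, shared stretch: aataaaaccactagacatcagcagaggaga

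**Figure D1:**
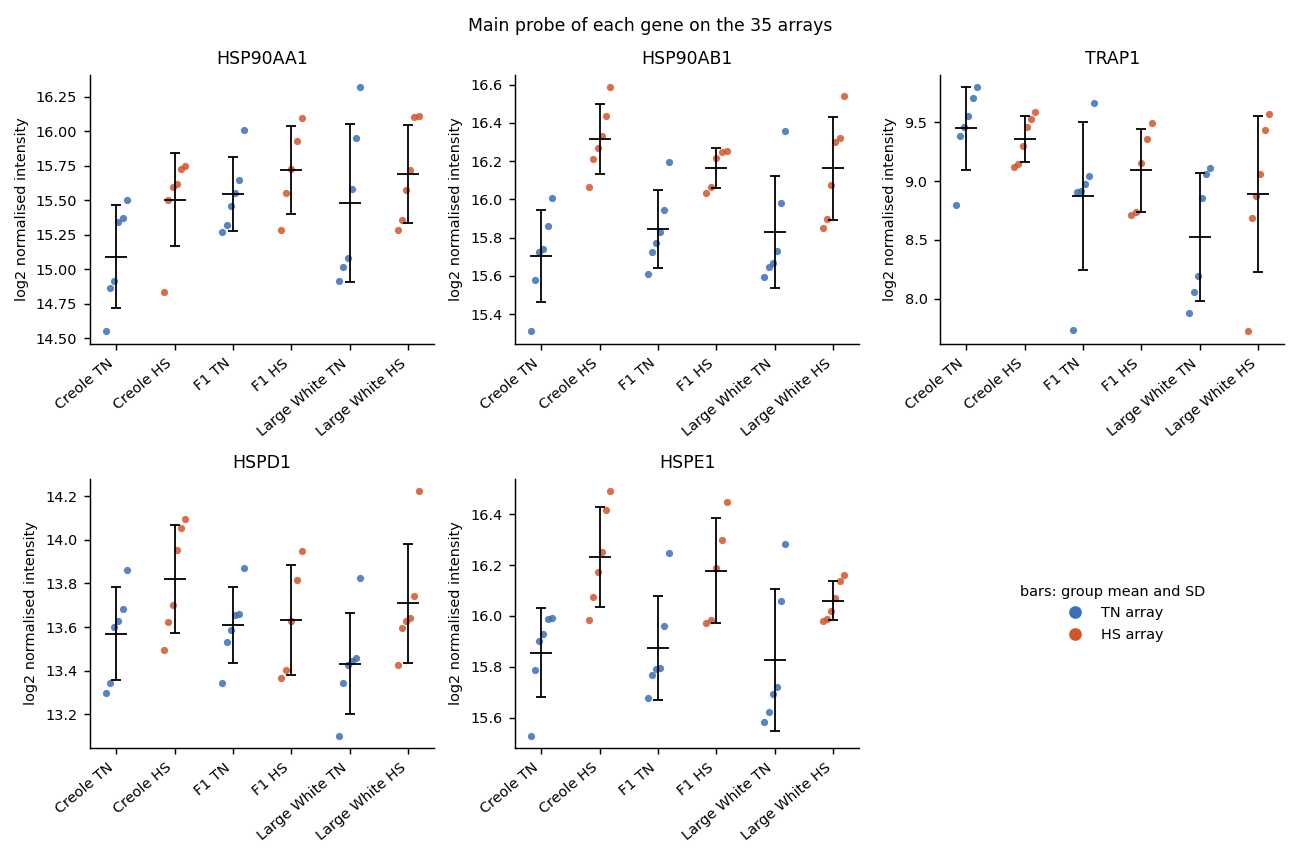
Level (normalised log2 intensity, y axis, a scale of its own in each panel) of the brightest kept probe of each gene on the 35 arrays, by breed and temperature, with blue points for TN, red points for HS and bars for the group mean and SD. In the HSP90AB1 panel the Creole HS points (16.07 to 16.59) lie above all Creole TN points (15.31 to 16.01), and in the TRAP1 panel no Creole point lies below 8.80.

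HSP90AA1, the stress-inducible form, was called at fewer probes. At its brightest probe, A_72_P700356, Creole TN levels ran from 14.55 (median 15.13) to 15.50 and Creole HS levels from 14.84 (median 15.61) to 15.75. F1 TN levels ran from 15.27 (median 15.50) to 16.01, and F1 HS levels were 15.28, 15.55, 15.73, 15.93 and 16.09. Large White TN levels ran from 14.92 (median 15.33) to 16.32 and HS levels from 15.28 (median 15.65) to 16.11. TN and HS overlapped in every breed, and 13 of 17 HS pigs lay above the TN mean of their breed.

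The HSP90AA1 change at that probe was 0.27 (95% interval 0.02 to 0.52, limma adjusted p = 0.128), from 15.37 ± 0.45 (SD, n = 18) to 15.63 ± 0.33 (SD, n = 17). It was called without Large White TN pig 1, at 0.33 (adjusted p = 0.0465), and with the mean of all kept HSP90AA1 probes, at 0.26 (adjusted p = 0.0245). The called HSP90AA1 probes were A_72_P683318, at 0.30 (adjusted p = 0.0255), and the identical pair A_72_P525187, at 0.30 (adjusted p = 0.0207), and O8902 (adjusted p = 0.0269), so that they stand for 2 sequences. Of 13 alternatives these probes were called in 8, 9 and 9. The leukocyte mean as a covariate took their calls away, at changes of 0.15, 0.16 and 0.13 (adjusted p = 0.383, 0.352 and 0.429). All 8 HSP90AA1 probes were higher in HS, by 0.20 to 0.30. The difference between the spots of the identical sequence had an SD of 0.0684 over the 35 arrays, and they correlated at r = 0.97.

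Whether the cytosolic pair responded differently was tested on the per-array difference HSP90AB1 minus HSP90AA1, which moved from 0.42 ± 0.31 in TN to 0.59 ± 0.30 in HS. It was higher in HS by 0.20 in Creole, 0.14 in F1 and 0.12 in Large White pigs, with a weighted mean of 0.16 (two-sided permutation p = 0.101, adjusted 0.164 over 2 tests). HSP90AB1 passing the test where the brightest HSP90AA1 probe did not is therefore not shown to be a difference between them.

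**Figure D2:**
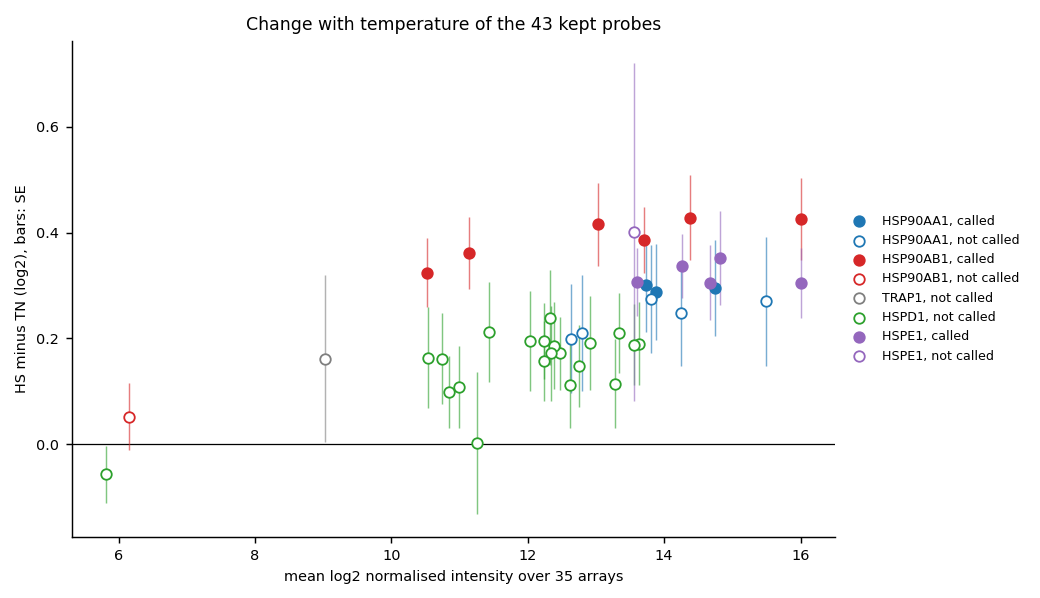
HS minus TN change (log2, y axis) with its SE against the mean level over 35 arrays (log2 intensity, x axis) for the 43 kept member probes, coloured by gene, with filled points for called probes. HSP90AB1 has 6 of 7 and HSPE1 5 of 6 points filled, HSPD1 has 0 of 21, and the open HSPE1 point with the longest bar is O8477 (0.40, SE 0.32).

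HSPE1, the lid of the chaperonin, rose at 5 of its 6 probes. At its brightest probe, A_72_P137646, Creole TN levels ran from 15.53 (median 15.92) to 15.99 and HS levels from 15.98 (median 16.21) to 16.49. F1 TN levels ran from 15.68 (median 15.79) to 16.25, and F1 HS levels were 15.97, 15.98, 16.19, 16.30 and 16.45. Large White TN levels ran from 15.58 (median 15.71) to 16.28 and HS levels from 15.98 (median 16.05) to 16.16. The ranges overlapped in each breed, in Creole only between 15.98 and 15.99, and all 17 HS pigs lay above the TN mean of their breed. As for HSP90AB1, how many of all kept probes do the same was not counted.

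The HSPE1 mean was 15.85 ± 0.21 in TN (SD, n = 18) and 16.16 ± 0.17 in HS (SD, n = 17). The change was 0.30 (SE 0.07, limma adjusted p = 0.00244), or 1.24-fold with a 95% interval of 1.13 to 1.36. The change was positive in each of the 5 slides (0.22 to 0.44), the lowest being that of slide 5 with 2 Large White TN pigs and 1 Creole HS pig. Scaling to the 75th percentile lowered the change to 0.19 and took the call away (adjusted p = 0.0665).

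The HSPE1 probe that was not called, O8477, varied far more between pigs than the others. Its F1 TN levels were 10.68, 10.82, 11.85, 13.57, 13.57 and 13.96, and its F1 HS levels were 10.88, 12.26, 13.90, 14.78 and 14.87. Creole levels ran from 13.30 to 14.57 in TN and from 13.63 to 14.83 in HS, and Large White levels from 13.41 to 14.15 in TN and from 12.17 to 14.47 in HS. The lowest levels, from 10.68 to 12.26, were thus those of 3 F1 TN pigs, 2 F1 HS pigs and 1 Large White HS pig. The within-group SD of O8477 was 0.999, which 0.759% of all kept probes exceeded, and 0.199 for A_72_P137646, which 62.3% exceeded.

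O8477 had the largest HSPE1 change and the widest error, 0.40 (95% interval -0.25 to 1.05, limma adjusted p = 0.417). It overlaps A_72_P752325, a called HSPE1 probe at 0.31 (adjusted p = 0.00375), over 26 bases, in capitals here, with 25 matching and the substitution G45A counted from the 5′ end of A_72_P752325.
HSPE1 A_72_P752325: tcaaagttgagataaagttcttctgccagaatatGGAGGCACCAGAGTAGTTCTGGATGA
HSPE1 O8477: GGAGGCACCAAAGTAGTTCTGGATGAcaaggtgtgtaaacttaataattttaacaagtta
A_72_P752325 was called under 10 of 13 alternatives and lost its call with 75th percentile scaling (0.19, adjusted p = 0.0619) and, at adjusted p = 0.0502 and 0.0522, with brightness or the leukocyte mean as a covariate. The 34 bases of O8477 past the overlap share no run longer than 8 bases with the other HSPE1 probes. Its correlation with those 5 probes over the arrays, group means removed, ran from -0.25 to 0.46, while the 5 correlated with each other at a median r of 0.62.

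**Figure D3:**
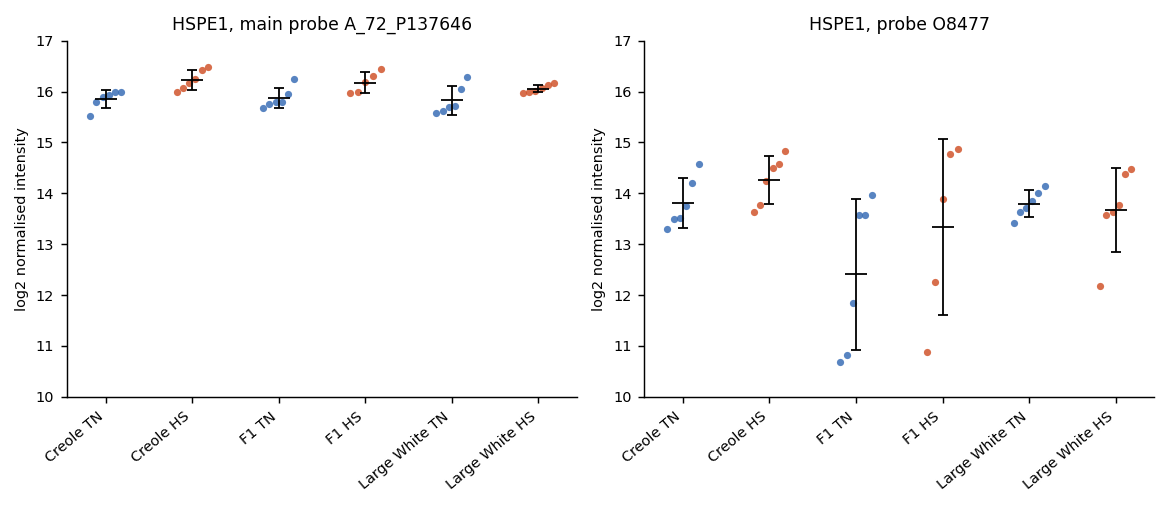
Level (normalised log2 intensity, y axis, from 10 to 17 in both panels) of HSPE1 A_72_P137646 (left) and O8477 (right) on the 35 arrays by group, with bars for the group mean and SD. A_72_P137646 stays between 15.53 and 16.49, while O8477 spreads from 10.68 to 14.87, with the widest spread in the F1 groups.

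HSPD1, the chaperonin ring, was higher in HS at 20 of 21 probes, and 0 of 21 were called. The changes ran from -0.06 to 0.24 with a median of 0.17, and the adjusted p-values from 0.0547 to 0.994. The negative value belonged to O3429, a dim probe that was well above background on 31 of 35 arrays. The HSPD1 probes moved together, with a median r of 0.81 over 210 pairs once group means were removed.

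At the brightest HSPD1 probe, A_72_P695270, Creole levels ran from 13.30 (median 13.62) to 13.86 in TN and from 13.49 (median 13.83) to 14.09 in HS. Large White levels ran from 13.10 (median 13.43) to 13.82 in TN and from 13.42 (median 13.64) to 14.22 in HS. F1 levels ran from 13.34 (median 13.62) to 13.87 in TN and were 13.37, 13.40, 13.63, 13.82 and 13.95 in HS. TN and HS overlapped in every breed, most of all in F1.

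The HSPD1 mean was 13.54 ± 0.21 in TN (SD, n = 18) and 13.73 ± 0.25 in HS (SD, n = 17), a change of 0.19 (95% interval 0.03 to 0.35, limma adjusted p = 0.0918). The per-array difference HSPE1 minus HSPD1 was higher in HS by 0.12 (two-sided permutation p = 0.164, adjusted 0.164), by 0.13 in Creole and 0.28 in F1 pigs, and changed by -0.04 in Large White pigs. A different response of ring and lid is therefore not shown.

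No breed by temperature interaction passed the test for these genes, and the breed with the largest heat change differed between genes and between probes of 1 gene. At 4 of the 6 called HSP90AB1 probes the change was larger in Large White than in Creole pigs, as at A_72_P763852 with 0.51 against 0.45. Within Creole pigs 2 of 43 member probes were called against 1.91% of all kept probes, both of HSP90AB1, namely A_72_P051491 at 0.61 (limma adjusted p = 0.0243) and A_72_P642785 at 0.44 (adjusted p = 0.0333). The first lost its call without Creole TN pig 1 or 6 or Creole HS pig 1 or 6 (changes from 0.53 to 0.67 over all left-out pigs, adjusted p up to 0.0863), and the second without any 1 of Creole TN pigs 1, 5 and 6 and Creole HS pigs 1, 3, 5 and 6 (adjusted p up to 0.107). Within F1 and within Large White pigs 0 member probes were called, where 0.00482% of all kept probes were called in each breed. At an unadjusted limma p under 0.05 the counts of member probes were 15 in Creole, 8 in F1 and 24 in Large White pigs. The share of all kept probes at that threshold was not counted, and many member probes overlap in sequence. These counts are therefore not shown to be particular to the members.

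In F1 pigs HSP90AB1 changed by 0.32 (adjusted p = 0.506), HSPE1 by 0.31 (0.445), HSP90AA1 by 0.17 (0.920) and HSPD1 by 0.03 (0.989). In Large White pigs the same probes gave 0.33 (adjusted p = 0.192), 0.23 (0.304), 0.21 (0.639) and 0.28 (0.290). In Creole pigs HSPE1 gave 0.38 (adjusted p = 0.0707), HSP90AA1 0.41 (0.255) and HSPD1 0.25 (0.270). TRAP1 gave -0.09 in Creole, 0.22 in F1 and 0.37 in Large White pigs, none of them called. The limma interaction test called 0 of 43 member probes and 0% of all kept probes, with 2 member probes and 1593 probes in all at an unadjusted p under 0.05, and the smallest adjusted p was 0.963.

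TRAP1 was the only member called between breeds, at its single kept probe. Its levels ran from 8.80 (median 9.46) to 9.80 in the 12 Creole pigs, from 7.72 (median 8.86) to 9.57 in the 12 Large White pigs and from 7.73 (median 8.97) to 9.66 in the 11 F1 pigs. The breeds overlapped, with no Creole pig in the lowest stretch below 8.80. The means were 9.40 ± 0.28 (SD, n = 12) in Creole, 8.71 ± 0.61 (SD, n = 12) in Large White and 8.97 ± 0.51 (SD, n = 11) in F1 pigs.

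Creole pigs exceeded Large White pigs in TRAP1 by 0.70 (SE 0.19, limma adjusted p = 0.0314), or 1.62-fold with a 95% interval of 1.24 to 2.12. It was the only call among 43 member probes in that comparison, where 3.64% of all kept probes were called. The count of member calls was thus not above the share over all kept probes. The call was lost with spike-in scaling (0.62, adjusted p = 0.0996), in TN pigs alone (0.92, adjusted p = 0.150), and without any 1 of Creole TN pigs 3, 4 and 5, Large White TN pigs 3, 5 and 6 and Large White HS pig 4 (0.59 to 0.67, adjusted p up to 0.0601).

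F1 pigs differed from Large White pigs in TRAP1 by 0.27 (limma adjusted p = 0.690) and from Creole pigs by -0.42 (adjusted p = 0.505). Over all members 0 of 43 probes were called in F1 against Large White (0.525% of all kept probes), 0 in F1 against Creole (0.477%) and 0 in F1 against the midpoint of its parental breeds (0.246%). At an unadjusted limma p under 0.05 there were 4, 4 and 5 member probes, and the share of all kept probes at that threshold was not counted.

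With heat, TRAP1 changed by 0.16 (95% interval -0.16 to 0.48, limma adjusted p = 0.520), from 8.95 ± 0.63 (SD, n = 18) to 9.11 ± 0.47 (SD, n = 17). Creole TN levels ran from 8.80 (median 9.51) to 9.80 and HS levels from 9.12 (median 9.38) to 9.59. Large White TN levels ran from 7.87 (median 8.53) to 9.11 and HS levels from 7.72 (median 8.96) to 9.57. F1 TN levels ran from 7.73 (median 8.95) to 9.66, and F1 HS levels were 8.71, 8.73, 9.16, 9.35 and 9.49, so that TN and HS overlapped in every breed.

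Beyond breed and temperature, some pairs of members also varied together from pig to pig. Correlations were taken over the 35 arrays on the brightest probe of each gene after removal of the 6 group means, and 6 of the 10 pairs passed a permutation test at an adjusted p of 0.05. The share of all gene pairs that would pass was not taken. Values of this size were common, as HSPE1, at r = 0.43 with HSP90AB1, ranked 1969 among 9539 other genes in likeness to it. The count is therefore not shown to be particular to these genes. HSP90AA1 and HSP90AB1 correlated at Pearson r = 0.69 (permutation p = 0.00014, adjusted 0.0011) and Spearman rho = 0.71 (adjusted permutation p = 0.0005), with r = 0.69 without the 2 pigs farthest from the median of HSP90AA1. Within slides 1 to 4 this r ran from 0.45 to 0.75.

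HSP90AB1 and HSPD1 correlated at r = 0.62 (permutation p = 0.00022, adjusted 0.0011) and rho = 0.56 (adjusted permutation p = 0.00485), with 0.48 without 2 pigs and 0.15 to 0.75 within slides. HSP90AA1 and HSPD1 gave r = 0.46 (permutation p = 0.00979, adjusted 0.031) and rho = 0.51 (adjusted permutation p = 0.0121), with 0.62 without 2 pigs and -0.38 to 0.77 within slides. The chaperonin pair HSPD1 and HSPE1 gave r = 0.42 (permutation p = 0.0178, adjusted 0.031) and rho = 0.43 (adjusted permutation p = 0.0399), with 0.40 without 2 pigs and 0.02 to 0.42 within slides. Without 1 pig, the call of HSP90AA1 with HSPD1 was lost without Creole HS pig 2 or Creole TN pig 6 (adjusted permutation p up to 0.0655) and that of HSPD1 with HSPE1 without Creole HS pig 2 or 6, Creole TN pig 6, F1 HS pig 3 or Large White TN pig 6 (up to 0.168).

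HSP90AB1 and HSPE1 (r = 0.43, permutation p = 0.0186, adjusted 0.031) and TRAP1 and HSPE1 (r = -0.43, permutation p = 0.0157, adjusted 0.031) passed by Pearson's r only, and each lost its call without any 1 of several pigs, Creole HS pig 2, F1 TN pig 3 and Large White TN pig 4 in both, besides Creole HS pig 6, Creole TN pig 6 and Large White TN pig 6 for the former and F1 TN pig 6 and Large White HS pig 4 for the latter. Their rho values were 0.34 (adjusted permutation p = 0.0939) and -0.30 (adjusted permutation p = 0.145), r became 0.34 and -0.31 without 2 pigs, and within slides it ran from -0.47 to 0.81 and from -0.64 to 0.22. The sign of these relations, and of that of HSP90AA1 with HSPD1, therefore did not hold within every slide. The remaining pairs, HSP90AA1 with HSPE1 (0.31), HSP90AA1 with TRAP1 (0.23), HSP90AB1 with TRAP1 (0.00) and TRAP1 with HSPD1 (-0.04), had adjusted permutation p-values from 0.196 to 0.994.

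**Figure D4:**
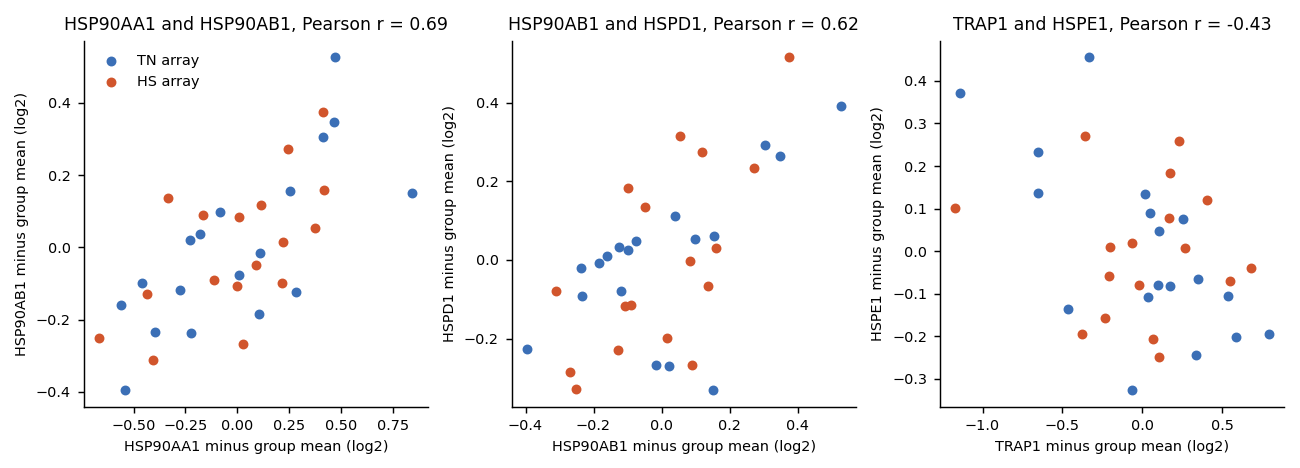
Levels of 3 pairs of members on the 35 arrays with the group mean taken off each (log2, both axes), blue for TN and red for HS. HSP90AA1 and HSP90AB1 (r = 0.69) and HSP90AB1 and HSPD1 (r = 0.62) rise together. TRAP1 and HSPE1 have r = -0.43, which passed by Pearson's r only (rho = -0.30).

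Muscle pieces hold several cell types, and in bulk samples fewer cells of a type and less RNA per cell cannot be told apart. The skeletal muscle markers were bright on all arrays, 7 of 8 being measured with no gene mean under 17.92, and their median change was -0.02. At the brightest probes DES was called higher (0.24, limma adjusted p = 0.0031) and MYH2 lower (-0.21, adjusted p = 0.0144). Of their other kept probes 0 of 3 for DES and 0 of 5 for MYH2 were called. Among further probes, 3 of 7 of MYH1 and 3 of 4 of TNNT3 were called lower. Of the leukocyte markers 10 of 12 were measured and 4 were called higher, LYZ at 2.26, TYROBP at 0.98, CSF1R at 0.93 and AIF1 at 0.89. Their mean level ran from 7.54 to 10.21 in TN and from 8.94 to 10.55 in HS, and ITGAM and CD4 had no kept probe.

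Markers of other cell types moved with temperature too. All 9 connective tissue markers had a positive change (median 0.33), with FN1 (0.84, limma adjusted p = 0.0105), LUM (0.39, 0.00534) and COL3A1 (0.33, 0.0111) called higher, and their mean level ran from 11.04 to 12.74 in TN and from 12.12 to 12.92 in HS. Of 6 endothelial markers VWF was called lower at its brightest probe (-0.36, adjusted p = 0.00226), and 0 of 1 other VWF probe was called. Among further probes, 1 of 2 of KDR and 1 of 1 of CLDN5 were called lower. The median was -0.21, with TEK positive at 0.10. Mean endothelial levels ran from 10.39 to 11.38 in TN and from 10.22 to 10.98 in HS. Of the blood markers 2 of 4 were measured and the globin HBB was lower (-1.21, adjusted p = 0.000536), with mean levels from 7.01 to 8.14 in TN and from 6.09 to 7.78 in HS. None of the 5 adipocyte, 5 nerve and 5 slow fibre markers measured was called at its brightest probe, while 1 of 2 further LEP probes was called lower. The part of these cell types in the changes of the chaperone genes was not tested.

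The leukocyte mean moved with the members over the arrays, group means removed, at r = 0.77 for HSP90AB1, 0.52 for HSPD1, 0.46 for HSP90AA1, 0.24 for HSPE1 and 0.14 for TRAP1. With the leukocyte mean as a covariate the heat change was 0.22 for HSP90AB1 (limma adjusted p = 0.0301), 0.25 for HSPE1 (0.0489), 0.06 for HSP90AA1 (0.817) and 0.05 for HSPD1 (0.787). The r of HSP90AA1 with HSP90AB1 became 0.59, that of HSP90AB1 with HSPD1 became 0.40 and that of HSP90AA1 with HSPD1 became 0.29 once the leukocyte mean was removed. Without the covariate the HSP90AB1 change was 0.43 and the HSPE1 change 0.30. With it the brightest probes of these 2 genes were called, while HSPE1 A_72_P752325 was not. The part of leukocytes in these changes was not tested.

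HS arrays were also somewhat brighter before normalisation, with a 75th percentile of 9.24 ± 0.24 (SD, n = 17) against 9.05 ± 0.17 (SD, n = 18) on the log2 scale. Brightness correlated with the members, group means removed, at 0.65 for HSPD1, 0.42 for HSP90AB1, 0.21 for HSPE1, 0.16 for HSP90AA1 and -0.13 for TRAP1. With brightness as a covariate the heat change was 0.34 for HSP90AB1 (limma adjusted p = 0.0093), 0.27 for HSPE1 (0.025), 0.21 for HSP90AA1 (0.389) and 0.05 for HSPD1 (0.719).

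The genes most like HSP90AB1 in their pattern over the 35 arrays, group means removed, were DES (r = 0.86), SERPINE2 (0.86), RPS19BP1 (0.85), CTSB (0.84) and FTL (0.84), out of 9539 other genes. HSP90AA1 ranked 633, HSPD1 1042, HSPE1 1969 and TRAP1 4460 in that order. For HSPD1 the leading genes were MCM6 (0.86), ATP6AP2 (0.86), CYP2D25 (0.86), SNRPG (0.85) and PCNA (0.85), and HSP90AB1 ranked 655 and HSPE1 1715. No other member was thus among the 5 genes closest to HSP90AB1 or to HSPD1.

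Few of the genes that work with these chaperones were called. Of 75 listed co-chaperones, heat shock factors, import proteins, proteases, stress regulators and clients, 62 had a kept probe, and 1 was called higher and 7 lower, with a median change of -0.07. Over all 9551 named genes, each at its brightest kept probe, 8.45% were called higher and 9.8% lower, and the median change was -0.02. A positive change was seen in 16 of the 62, and the share over all genes was not counted. Of the 62, 12.9% were called in either direction. The count of 8 calls became 5 with median scaling, 2 with spike-in scaling, 2 with the leukocyte mean and 1 with brightness as a covariate, and 13 with array weights. Calls over all kept probes went from 6654 to 6653, 4671, 2061, 2092 and 9158 in that order.

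Among 20 measured HSP90 co-chaperones and co-factors 0 were called higher and 4 lower, and the median change was -0.06. DNAJC7, a TPR protein that binds HSP70 and HSP90, fell by 0.28 (limma adjusted p = 0.00313), the ubiquitin ligase STUB1 by 0.22 (0.0214), the phosphatase PPP5C by 0.14 (0.0274) and CDC37L1, a relative of CDC37, by 0.24 (0.0473). The CDC37L1 call held in 13 of the 35 fits that left out 1 pig and had adjusted p-values up to 0.0818 in the rest. Among further kept probes, 2 of 2 of CDC37L1, 1 of 1 of PPP5C and 1 of 1 of DNAJC7 were called lower, and STUB1 had no other kept probe. Of 14 alternatives CDC37L1 was called in 8, PPP5C in 10 and STUB1 and DNAJC7 in 11 each, with changes that came as close to 0 as -0.09, -0.06, -0.08 and -0.17. The kinase-loading CDC37 was at 0.03 (adjusted p = 0.584), the ATPase activator AHSA1 at 0.12 (0.101), the p23 gene PTGES3 at -0.03 (0.742) and the myosin chaperone UNC45B at 0.09 (0.587).

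None of the 4 measured genes among the heat shock factors and the endoplasmic reticulum paralogue was called. HSF1, the main activator of heat shock genes, was at -0.15 (limma adjusted p = 0.0626). HSF2 was at -0.04 at a dim probe (6.68 in TN and 6.63 in HS). HSBP1, which binds heat shock factors, was at 0.08, and HSP90B1, the HSP90 of the endoplasmic reticulum, at 0.24 (adjusted p = 0.269). HSP90B1 had 8 other kept probes, of which 0 were called.

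On the mitochondrial side, 12 genes of the import motor and HSP70 cycle were measured, with TOMM22, an outer membrane import receptor, higher by 0.13 (limma adjusted p = 0.0323) and TIMM44, which anchors the import motor, lower by 0.24 (0.0114). The mitochondrial HSP70 gene HSPA9 was at -0.03 (adjusted p = 0.762). Its only kept probe was dim (6.17 in TN and 6.14 in HS), so that little can be read from this value. Of 9 measured proteases and prohibitins only SPG7 was called, lower by 0.19 (adjusted p = 0.0332), and LONP1 was at -0.10 (0.126). None of the 6 genes listed as stress regulators was called (median -0.10), a list that includes HSPBP1, which is not a mitochondrial protein. Apart from the mitochondrial lists, 11 client proteins of HSP90 were measured. Only ESR1, the estrogen receptor, was called, lower by 0.46 (adjusted p = 0.0017), as was its other kept probe. Among further probes of the clients, 1 of 2 of AHR was called higher and 1 of 3 of HIF1A lower, while the brightest probes of both were not called. The TOMM22 call was lost without Large White TN pig 3, Large White HS pig 5 or Creole HS pig 6 (adjusted p up to 0.0555), and the SPG7 call without any 1 of Creole TN pig 1, Creole HS pigs 3 and 4 and Large White HS pigs 1 and 5 (up to 0.0597). Of 14 alternatives TIMM44 was called in 11, SPG7 in 10, TOMM22 in 8 and ESR1 in 13.

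**Figure D5:**
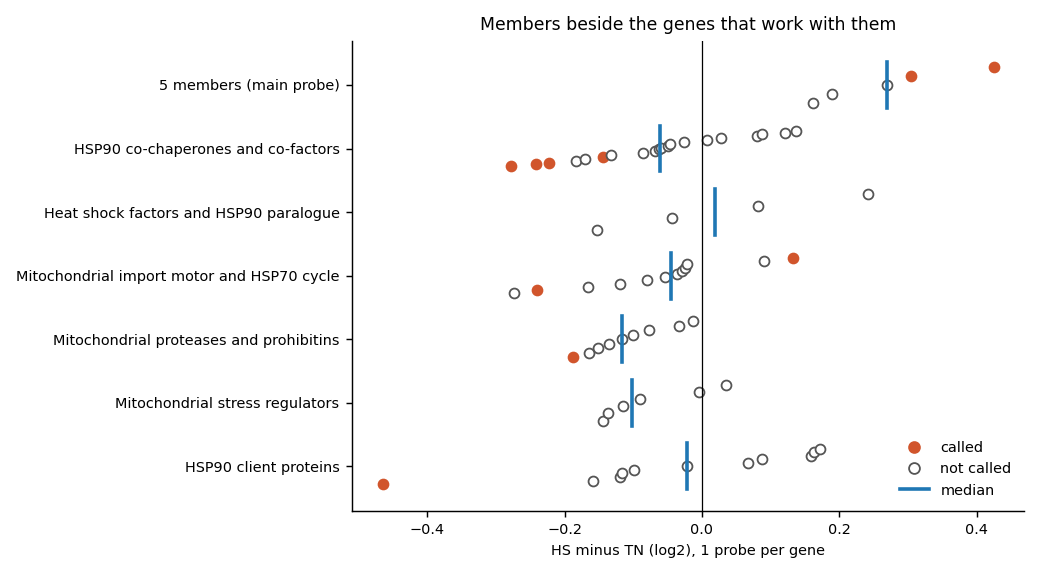
HS minus TN change (log2, x axis) of the 5 members at their brightest probe (top) and of the 62 measured partner genes by list, 1 point per gene, filled where called, with a blue line at the median of each list. All 5 members and 16 of the 62 partners lie right of 0, and 7 of the 8 called partners lie left of it. The median change over all genes was -0.02, and the share of all genes right of 0 was not counted.

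Between breeds, 4 of the 62 partner genes were called in Creole against Large White, where 3.7% of all named genes were called. UNC45B, which works with HSP90 in myosin folding, was higher by 0.75 (SE 0.12, limma adjusted p = 0.000184). Its levels ran from 12.73 to 13.41 in the 12 Creole pigs and from 11.49 to 12.60 in the 12 Large White pigs, without overlap. How many of all genes separate the breeds in this way was not counted. The F1 mean of UNC45B, 12.57 ± 0.33 (SD, n = 11), lay between those of the breeds, 13.02 ± 0.24 (SD, n = 12) and 12.28 ± 0.32 (SD, n = 12). A further UNC45B probe gave 0.54 (adjusted p = 0.00687), and another gave -0.07 (adjusted p = 0.775). With the mean of the UNC45B probes in place of the brightest, the difference was 0.41 (adjusted p = 0.0150).

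The mitochondrial deacetylase SIRT3 was lower in Creole pigs by 0.56 on the log2 scale (a difference of -0.56, SE 0.10, limma adjusted p = 0.000455), from 9.87 to 10.68 against 10.50 to 11.22 in Large White pigs, and its other kept probe gave -0.38 (adjusted p = 0.0007). GRPEL2, a nucleotide exchange factor of mitochondrial HSP70, was higher by 0.33 (adjusted p = 0.0271) and TOMM22 by 0.22 (0.0100), with overlapping breeds. Under the 14 alternatives SIRT3 was called in 13, GRPEL2 in 12 and TOMM22 in 11. The GRPEL2 call was lost without Creole TN pig 4 or Creole HS pig 3 (adjusted p up to 0.0555).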

How the data were processed

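Total RNA of each muscle sample was labelled with Cy3 and hybridised to a 1-colour Agilent porcine array, with 35 arrays on 5 slides scanned on 1 day. The deposited scanner files hold the spot intensity as the authors extracted it with Agilent Feature Extraction 10.10.1.1. The authors also deposited a value table on the log2 scale, used as an alternative. Median pixel intensities, without background subtraction, were quantile-normalised and taken to log2, with 105 outlier-marked spots left out and 0 saturated. limma 3.58.1 in R 4.3.3 was fitted to all 41517 kept probes with breed and temperature as terms, or with 1 mean per group for the effects within breeds. Pen, day of slaughter and parents, random terms of the study's model, are not in the labels and were not fitted. A gene was represented by its brightest kept probe, and changed partner genes and a few central ones were named. Permutations numbered 1e+05. Arrays give no read depth, and their number limits the precision. The probes were not placed on a genome. The members, lists and tests were chosen with earlier results of these data known.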

Additional observations from a re-analysis of the deposited data

Results flagged for a closer look

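HSP90AA1 A_72_P700356 stood apart in Creole HS pig 2, at 14.84 where the other 5 pigs of the group lay between 15.50 and 15.75, so that the gap took 0.728 of the group's range. The other 7 HSP90AA1 probes deviated from their group mean on that array by -0.72 to -0.19, and 7 of the 8 probes had their lowest value of the group there. It was the only such case among 78 sets of a probe and a group, of which chance alone marks about 1 in 20. No pair of breeds moved in opposite directions in every pig.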

How the results depend on the processing

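HSP90AB1 was called higher in HS under all 14 alternatives (0.22 to 0.46) and without each of the 35 pigs (0.39 to 0.46), and HSPE1 under 13 of 14 and without each pig. The exception was HSPE1 with 75th percentile scaling (0.19). HSP90AA1 became called with array weights (0.35) and with the mean of its probes (0.26), and ran from 0.23 to 0.33 without 1 pig. HSPD1 became called with array weights (0.18, adjusted p = 0.0490). Calls over all probes numbered 6654, and 7286 with 75th percentile scaling and 9158 with array weights. They numbered 2092 with brightness as a covariate and 2061 with the leukocyte mean. With the mean of the probes of each gene, where fewer features were tested, they numbered 1946. Member calls numbered 14, and 8 with 75th percentile scaling, 25 with array weights, 9 with brightness and 9 with the leukocyte mean. Calls were 63.6% higher ones with brightness. TRAP1 in Creole against Large White lost its call with spike-in scaling (0.62) and in TN pigs only (0.92), which left 0 member calls, and ran from 0.59 to 0.77 without 1 pig, with 0 to 1 member calls. F1 against Large White gave 1 member call with brightness. Member calls within Creole were 1 with 75th percentile or spike-in scaling, 6 with array weights and 0 to 6 without 1 pig. Within Large White they were 1 with spike-in scaling, 5 with slide as a fixed block or array weights and 0 to 6 without 1 pig. HSPD1 within F1 turned to -0.0049 with 75th percentile and -0.022 with spike-in scaling, and ran from -0.0527 to 0.0926 without 1 pig. Partner genes called by heat numbered 8, and 5 with median scaling, 2 with spike-in scaling, 13 with array weights, 1 with brightness, 2 with the leukocyte mean and 5 to 11 without 1 pig. Pairs of members that correlated numbered 6, and 2 with 75th percentile scaling and 2 to 7 without 1 pig. HSP90AB1 with TRAP1 gave r of -0.0836 with 75th percentile, -0.037 with median scaling and -0.0027 with normexp, and -0.0818 to 0.0768 without 1 pig. TRAP1 with HSPD1 gave 0.0279 with median and 0.244 with spike-in scaling, and -0.163 to 0.0313 without 1 pig. The cause of these shifts was not tested. Looking up accessions as well gave the same number of probes, 44. That lookup missed the probe with an HSP90AA1 accession described under the other observations, so the equal count does not show that the set is complete. No paired analysis was possible because replicate numbers only follow the order of the samples and the labels give no litter.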

Other observations

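A further probe on the array carries an accession of HSP90AA1 in place of a gene name and was not counted as a member. It was higher in HS by 0.27 (SE 0.08, limma adjusted p = 0.0248). Another unnamed probe holds the same 60 bases as HSP90AB1 A_72_P623359 and was higher by 0.35 (SE 0.07, adjusted p = 0.00086), against 0.32 (adjusted p = 0.00125) for the named spot.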
